A study of Gallus gallus with 5 samples.

Results

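Regions of open chromatin that were listed strongly in one sorted population of embryonic chick retinal cells and weakly in the other were examined, in both directions. Of 73493 merged regions on numbered chromosomes, 3064 were strong in every ThrbCRM1-positive library and weak in ThrbCRM1-negative cells, and 3195 were strong in every ThrbCRM1-negative library and weak in ThrbCRM1-positive cells. An interval was called strong when it was among the 50000 of its list with the highest fold enrichment, and weak when it was listed below that rank. A region was kept when every list of one population had a strong interval there, no list of the other population did, and at least 1 list of the other population held a weak one. Fold enrichment is the height of an interval's summit over the local background of its own library, as the authors' peak caller gave it. These 6259 graded regions were therefore chosen by the same ranks that are described first below, and those ranks are given without a test.

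The libraries were made by ATAC-seq, in which a transposase cuts accessible DNA and leaves sequencing adapters at the cuts. Chick (Gallus gallus) retinas were taken at embryonic day 5, electroporated with 2 plasmids, ThrbCRM1-GFP as the reporter and CAG-Cherry as the marker of transfection, and kept as explants for 48 h. Cells carrying both colours formed the ThrbCRM1-positive population (3 libraries), and cells with Cherry but no GFP formed the ThrbCRM1-negative population (2 libraries). Both populations thus came from retinas given the same plasmids at the same stage and culture, and they differed in whether reporter was detected at the sort. Cherry alone does not show that a negative cell had taken up the reporter plasmid. The negative population is not 1 cell type but holds any electroporated cell without detectable reporter. The number of retinas in a library and the purity of the sorts are not given in the sources used here, so the spread between libraries of a population may be technical. Gene positions in galGal5, the build of the lists per the submitters' processing notes, were not used here, so the labelled cells were not checked against marker genes and regions are given by position alone.

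ThrbCRM1 belongs to the gene for thyroid hormone receptor beta and is an enhancer active in restricted retinal progenitor cells that give rise to cone photoreceptors and horizontal cells. Otx2 and Onecut transcription factors act through such elements in these cells. Promoters and housekeeping elements tend to be open in many cell types, whereas distal enhancers tend to open in some lineages, and a distal element can also be partly open in related cells. In a sorted population of mixed cells, an element open in a few cells and an element slightly open in all of them give the same low signal, and these lists cannot tell the 2 apart.

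The lists held 86433, 72029 and 71596 unique intervals in ThrbCRM1-positive replicates 1, 2 and 3, and 84207 and 104902 in ThrbCRM1-negative replicates 1 and 2. Below the 50000 strongest there were accordingly 36433, 22029 and 21596 weak intervals in the positive lists and 34207 and 54902 in the negative lists, so a weak interval could be found most often in negative replicate 2. The fold enrichment at rank 50000 was 2.67, 2.79 and 2.97 in the positive lists and 2.82 and 3.22 in the negative lists. Read counts were not part of the lists, and the depth of the libraries is unknown. The smallest p value that an exact permutation test over 3 and 2 libraries can give is 0.1, and no test between the populations was run.

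The regions strong in ThrbCRM1-positive cells and weak in negative cells, 4.17% of all regions, lay in the middle of the positive rankings. Their median rank was 28721, 28146.5 and 28183 in positive replicates 1, 2 and 3. In negative replicate 1, 1923 of the 3064 were listed at a median rank of 63606, and in negative replicate 2, 2612 were listed at a median rank of 70679. The 3 positive libraries were alike in these ranks, and the negative libraries differed from each other in how many of the regions they listed. Median fold enrichment was 3.78, 3.98 and 4.38 in the positive libraries, against 2.44 and 2.56 where the negative libraries listed the region. The median −log10 q value, the caller's significance within a library, was 12.1, 10.8 and 10.2 in the positive lists and 3.13 and 3.82 in the negative lists. Of the weak intervals, 81.9% in negative replicate 1 and 88.9% in negative replicate 2 had a q value of 0.01 or less.

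**Figure D1:**
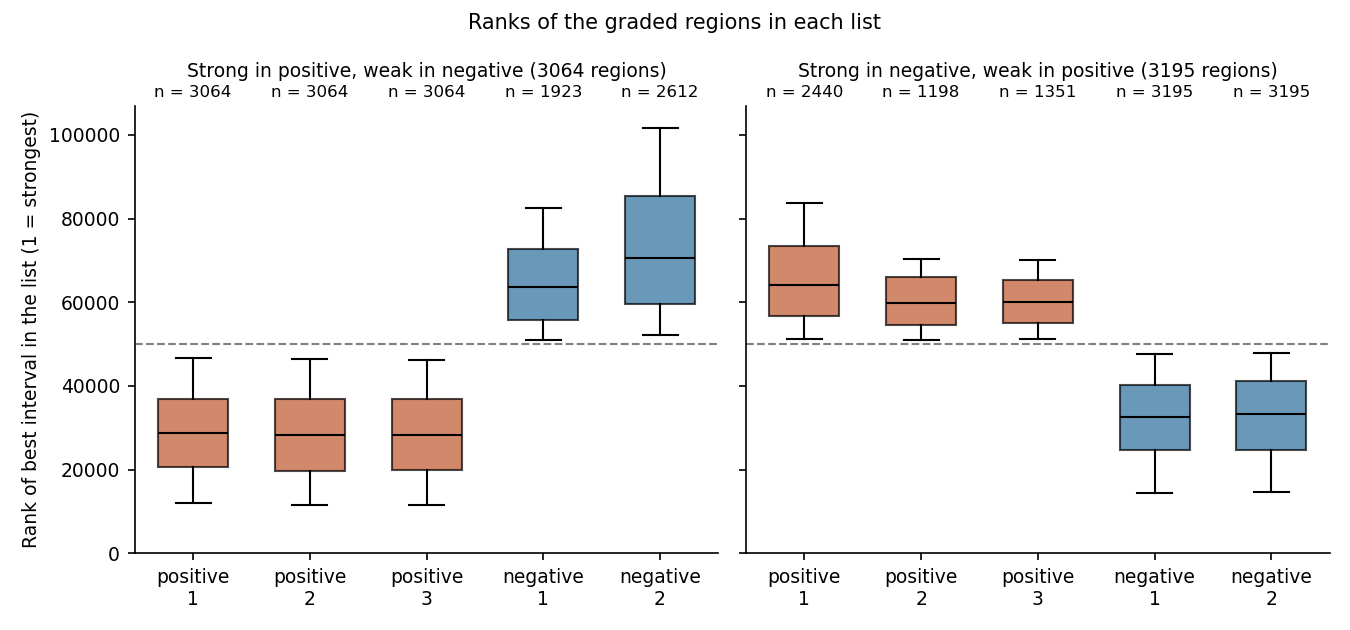
Rank of the best interval at each graded region in each list (y axis, rank 1 is the strongest), for regions strong in positive cells (left) and strong in negative cells (right). Boxes show the median and quartiles, whiskers the 5th and 95th percentiles, n the regions listed in that library, and the dashed line rank 50000, which the rule sets. The weak ranks, above the line, reach the highest numbers in negative replicate 2, whose list is the longest.

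The regions strong in ThrbCRM1-negative cells and weak in positive cells, 4.35% of all regions, ranked a little lower in their own population. The rule asked for 2 strong lists here and for 3 in the other direction, so own-population ranks are not directly comparable. These regions were listed at median ranks of 64056, 59917.5 and 59967 in 2440, 1198 and 1351 cases in positive replicates 1, 2 and 3. Median ranks were 32543 and 33341 for all 3195 in negative replicates 1 and 2. Positive replicate 1, the longest positive list, held the most of them. Median fold enrichment at these regions was 2.33, 2.46 and 2.63 where the positive libraries listed them and 3.73 and 4.22 in the negative libraries. The q value was 0.01 or less in 78.5%, 76.5% and 62.8% of the weak positive intervals. The count rose to 4789 without negative replicate 1 and to 5139 without negative replicate 2, since a single negative list then sufficed.

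In most of the graded regions the weak interval was found in some lists of the other population and not in others. Of the 3064 regions strong in positive cells, 1471 (48.0%) were weak in both negative lists, 452 in negative replicate 1 alone and 1141 in negative replicate 2 alone. Of the 3195 regions strong in negative cells, 391 (12.2%) were weak in all 3 positive lists, 1012 in a pair of them and 1792 (56.1%) in a single one. The single list was positive replicate 1 in 1154 cases, replicate 2 in 292 and replicate 3 in 346. The lists that most often held the only weak interval, positive replicate 1 and negative replicate 2, were the longest of their populations. The part of list length in this was not tested beyond cutting all lists to 71596 intervals, which left 2086 regions strong in positive cells and 2842 strong in negative cells.

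The step between strong and weak was small in many regions and large in a few. The ratio of the best weak rank to the worst strong rank had a median of 1.92 for regions strong in positive cells and 1.65 for regions strong in negative cells. It was at least 2 in 1414 (46.2%) and 950 (29.7%) regions and at least 4 in 213 (6.95%) and 83 (2.60%). The directions are not comparable in this ratio, since each has a different number of strong and weak lists. A weak rank is also limited by list length, 84207 and 104902 in the negative lists but 72029 and 71596 in positive replicates 2 and 3. Among the libraries where a region was strong, the worst rank divided by the best had a median of 1.47 over the 3 positive libraries and 1.21 over the 2 negative libraries. The rule holds strong and weak ranks to opposite sides of 50000, so the step and this spread are descriptions and neither is set against the other. The lowest fold enrichment in the strong libraries was above the highest in the weak ones in 2912 (95.04%) and 3174 (99.3%) regions. The rule largely fixes this order, since ranks follow fold enrichment within each list. The scales were not normalized between libraries.

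Regions near rank 50000 show how the threshold divided similar values. Just inside, a region on chromosome 21 from 3315350 to 3315931 had fold enrichments of 3.61, 4.43 and 3.75 in the positive libraries and 2.82 and 2.85 in the negative libraries, with a rank of 50008 in negative replicate 1. The other region just inside, on chromosome 14 from 8255414 to 8256518, ranked 50001 in negative replicate 1 and was not listed in negative replicate 2. Just outside, a region on chromosome 17 from 9050172 to 9050810 had 4.72, 4.77 and 5.13 in the positive libraries and 2.82 and 2.56 in the negative libraries, with a rank of 49987 in negative replicate 1. A region on chromosome 4 from 77513757 to 77514437 was also just outside, at rank 49995 in that list. The region outside on chromosome 17 thus had a larger step than the region inside on chromosome 21. In the other direction the regions just inside, on chromosome 9 from 17903533 to 17903960 and on chromosome 12 from 11570855 to 11571592, ranked 50005 and 50007 in positive replicate 2. The regions just outside, on chromosome 6 from 20577163 to 20577709 and on chromosome 20 from 10552383 to 10554143, ranked 49992 and 49991 in positive replicate 1.

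Graded regions were rare among the strongest intervals, given here as a description. The bins use the same ranks as the rule, and a region near rank 50000 needs a smaller shift in rank to pass it. Such bins were not made between replicates of one population. Among the 8710 regions strong in all positive lists with a mean positive rank up to 10000, 62 (0.712%) were weak in negative cells and 21 (0.241%) were not listed there. Between mean ranks of 20001 and 30000 the shares were 12.0% and 10.4% of 8470 regions, and between 40001 and 50000 they were 23.3% and 17.7% of 1539. For regions strong in both negative lists, 27 of 8873 (0.304%) were weak in positive cells up to a mean rank of 10000, 9.45% of 8791 between 20001 and 30000, and 21.3% of 3484 between 40001 and 50000. The graded share was above the share not listed in each of the 5 bins and in both directions, in lists of unequal length. List length bears on whether a region is weak or not listed, and the bins were not made again with equal lists. With all lists cut to 71596 intervals, 2086 graded regions remained for positive cells, below the 2479 not listed before the cut. For negative cells 2842 remained, above the 2301 not listed before the cut. Regions lost by the cut become not listed, so in both directions the count not listed after the cut is higher than the one given. Over all ranks, 9.04% of the 33897 regions strong in every positive list were graded and 7.31% were not listed in negative cells. Of the 38219 regions strong in both negative lists, 8.36% were graded and 6.02% were not listed in positive cells.

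**Figure D2:**
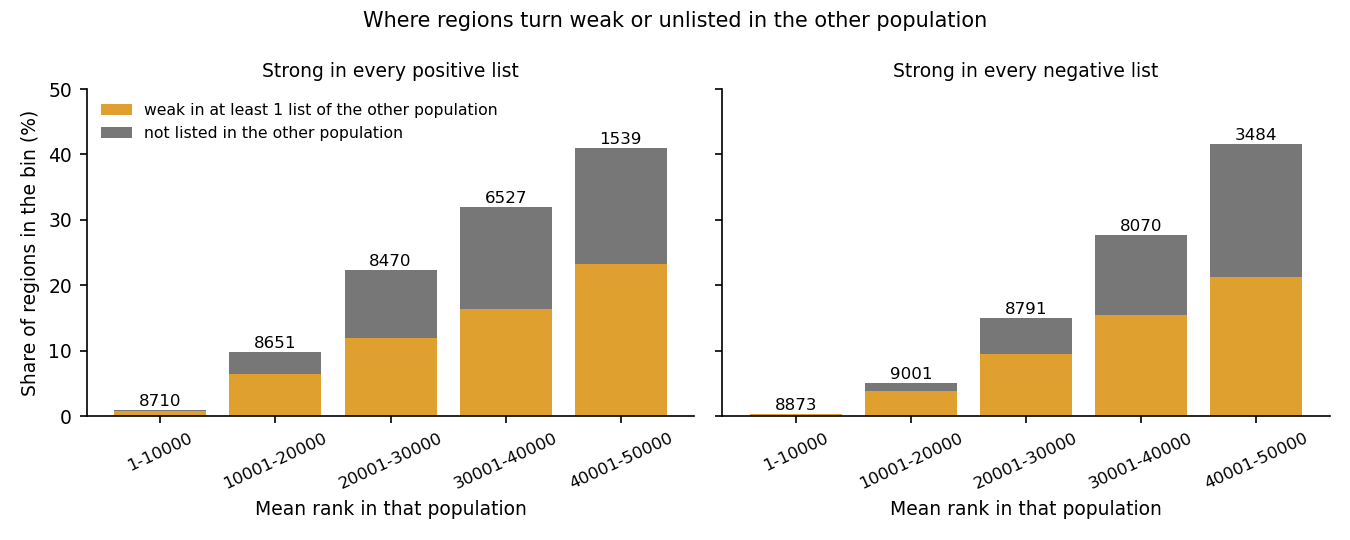
Share of regions strong in every list of a population that were weak (orange) or not listed (grey) in the other population, by mean rank in bins of 10000 (x axis), with the number of regions in each bin above its bar. Both shares are low among the strongest regions and grow towards rank 50000, the threshold of the rule, to 23.3% and 17.7% for positive cells in the last bin.

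The 6 regions strong in positive cells with the lowest mean rank were spread over 6 chromosomes, in galGal5 coordinates. The first lay on chromosome 12 from 12037296 to 12037997 and had fold enrichments of 10.3, 9.48 and 9.69 in positive replicates 1, 2 and 3, against 2.72 and 2.56 in negative replicates 1 and 2. It ranked 2357, 4333 and 5338 in the positive lists and 51988 and 69288 in the negative lists. The second, on chromosome 13 from 7826978 to 7827573, had 7.54, 8.77 and 12.6 in the positive libraries and 2.72 and 2.44 in the negative libraries. In both regions every positive library stood far above both negative libraries.

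The third region, on chromosome 10 from 8969301 to 8969867, had fold enrichments of 7.21, 10.9 and 10.4 in the positive libraries and was listed in negative replicate 2 alone, at 2.89. The fourth, on chromosome 1 from 189140652 to 189141427, had 7.43, 8.80 and 10.4 in the positive libraries and 2.60 and 2.89 in the negative libraries. In the second and the fourth, positive replicate 1 was the lowest of the positive libraries and replicate 3 the highest. The fifth, on chromosome 11 from 13693423 to 13694439, had 9.76, 8.49 and 8.38 in the positive libraries and 2.48 and 2.00 in the negative libraries. The sixth, on chromosome 8 from 20327858 to 20328422, had 8.60, 7.87 and 10.0 in the positive libraries and 2.72 and 2.11 in the negative libraries. Here the 3 positive summits lay within 4 bp of each other and the weak summits at most 14 bp from them.

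Ordered by the ratio of ranks, the leading region was on chromosome 1 from 89040594 to 89041446, with fold enrichments of 7.57, 7.83 and 8.65 in the positive libraries and 2.18 and 2.43 in the negative libraries. Its best weak rank, 75216, was 9.79 times its worst strong rank, 7684. The region on chromosome 12 described above came second, at a ratio of 9.74. The next was on chromosome 2 from 105966328 to 105967016, with 7.17, 8.33 and 8.85 in the positive libraries and 2.23 and 2.22 in the negative libraries. The last of the 4, on chromosome 4 from 44646427 to 44647195, had 7.38, 7.21 and 9.05 in the positive libraries and was listed in negative replicate 1 alone, at 2.23. Over the regions of these 2 orders the lowest positive value was 7.17 and the highest negative value 2.89. With equal list lengths, the regions on chromosomes 1, 2 and 4 in the order by ratio would not be members. The weak interval of the region on chromosome 4, in negative replicate 1, had a −log10 q of 1.86. With a q value of 0.01 or less required, that region would not be a member either.

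The 6 regions strong in negative cells with the lowest mean rank included 3 on chromosome 2. The first, from 3323586 to 3324729, had fold enrichments of 2.29, 2.55 and 2.85 in positive replicates 1, 2 and 3, against 9.05 and 9.98 in negative replicates 1 and 2. Its strongest summit was at the same base in both negative lists, and a weak summit lay up to 449 bp away from it. It also had the highest ratio of ranks in this direction, 9.08. The second, from 19903257 to 19904210, was listed in positive replicates 1 and 3 at 2.00 and 2.92, and had 8.04 and 10.9 in the negative libraries. The third, from 81488865 to 81489585, was listed in every library, with 2.39, 2.69 and 2.90 in the positive and 7.96 and 10.7 in the negative libraries. All 3 had a higher fold enrichment in negative replicate 2 than in negative replicate 1, although by rank the first stood higher in replicate 1 (5983 in replicate 2 and 5106 in replicate 1).

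The fourth region, on chromosome 1 from 121664358 to 121665157, was listed in positive replicates 1 and 2 at 2.55 and 2.55, and had 10.4 and 8.50 in the negative libraries. The fifth, on chromosome 4 from 5922546 to 5923296, and the sixth, on chromosome 3 from 48773377 to 48773885, were listed in positive replicate 1 alone, at 2.66 and 2.44. In the negative libraries the fifth had 8.66 and 9.11 and the sixth 7.79 and 9.89. Among the 4 with the highest ratio of ranks, the regions not yet named were both on chromosome 5. One, from 41932616 to 41933371, was listed in positive replicate 1 alone at 2.00, and had 7.05 and 9.71 in the negative libraries. Its weak interval ranked 83058, with a −log10 q of 1.315 where the smallest in that list was 1.301. With equal list lengths, or with a q value of 0.01 or less required, this region would not be a member. The other, from 49908105 to 49908576, was listed in positive replicates 1 and 3 at 2.00 and 2.74, and had 7.92 and 8.998 in the negative libraries. Over the regions of these 2 orders the highest positive value was 2.92 and the lowest negative value 7.05, and of the positive lists replicate 1 alone held all of them.

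**Figure D3:**
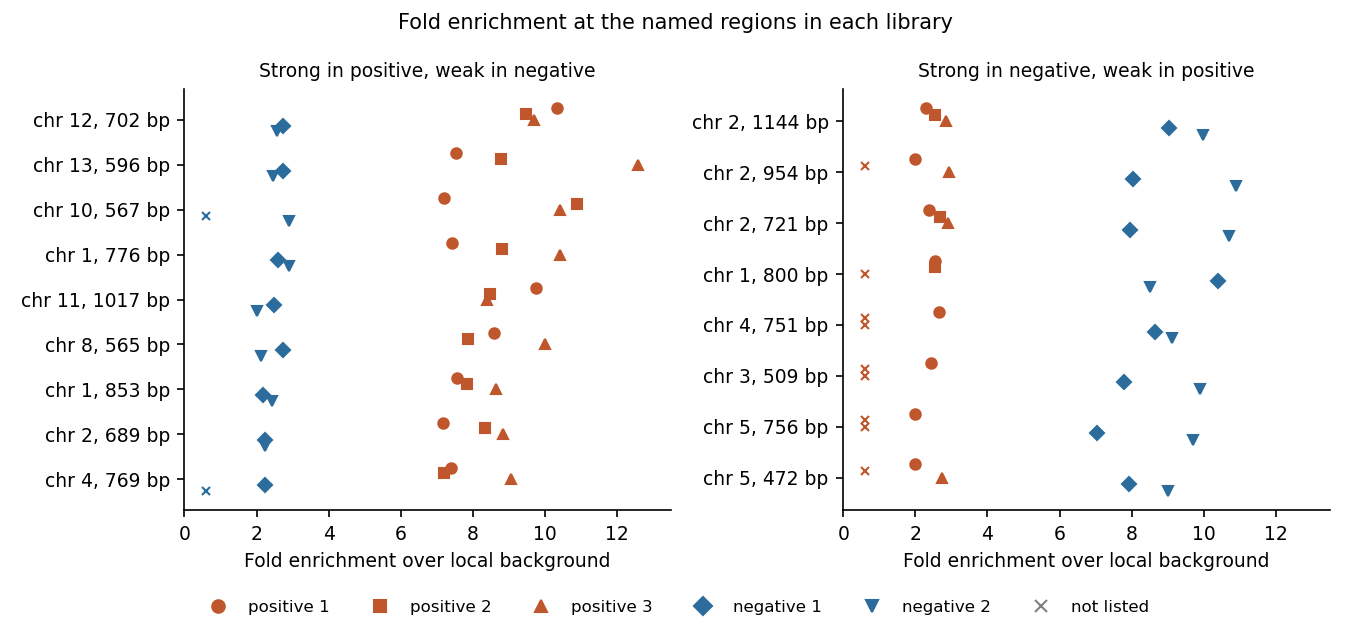
Fold enrichment over local background (x axis) in each of the 5 libraries at the 9 named regions strong in positive cells (left) and the 8 strong in negative cells (right), 1 row per region, labelled by chromosome and width. Crosses mark libraries that did not list the region, drawn at an arbitrary place left of the values. Strong and weak libraries are separated at every region, at 7.05 or more against 2.92 or less, and the regions were chosen by these ranks.

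Whether the grading was found again in a library that had not chosen the regions was examined by applying the rule to 4 libraries, with regions merged again without the fifth, and reading the fifth. For regions chosen as strong in positive cells and weak in negative cells, the left-out library held a strong interval at 83.0%, 80.8% and 82.1% of them when it was positive replicate 1, 2 or 3. It did so at 36.2% and 30.3% of them when it was negative replicate 1 or 2. Over all regions these 5 shares were 62.0%, 59.4% and 59.9% in the positive and 61.0% and 60.0% in the negative libraries. Regions chosen without a positive library were therefore strong in it more often than regions at large. Regions chosen without a negative library were strong in it less often. When left out, negative replicates 1 and 2 held a weak interval at 35.9% and 53.3% of them. They did not list 27.9% and 16.4%. Regions at large include those strong in a single list and those strong in all. The chosen ones had to be strong in every remaining positive list and in no remaining negative list. These sets differ by more than grading, so the comparison, here and for the other direction, does not single out grading.

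For regions chosen as strong in negative cells and weak in positive cells, the left-out library held a strong interval at 33.4%, 16.1% and 22.3% of them when it was positive replicate 1, 2 or 3, and at 67.3% and 62.2% when it was negative replicate 1 or 2. The shares in positive libraries were all below those over all regions. The share in negative replicate 1 was 6.3 percentage points above that over all regions and the share in negative replicate 2 was 2.1 points above it. In that case a single negative list had chosen the regions. In each of the 5 libraries the regions of its own population were strong more often than those of the other. The difference was 31.0 to 64.7 percentage points (mean 47.4 ± 15.5, SD over the 5 libraries). The 5 choices share libraries and left fewer own lists for negative than for positive libraries. This SD is therefore not a spread between independent replicates. The left-out library did not list the region at all in 4.25% to 7.86% of cases for positive libraries and their own regions, and in 7.49% to 12.1% for negative libraries and theirs.

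**Figure D4:**
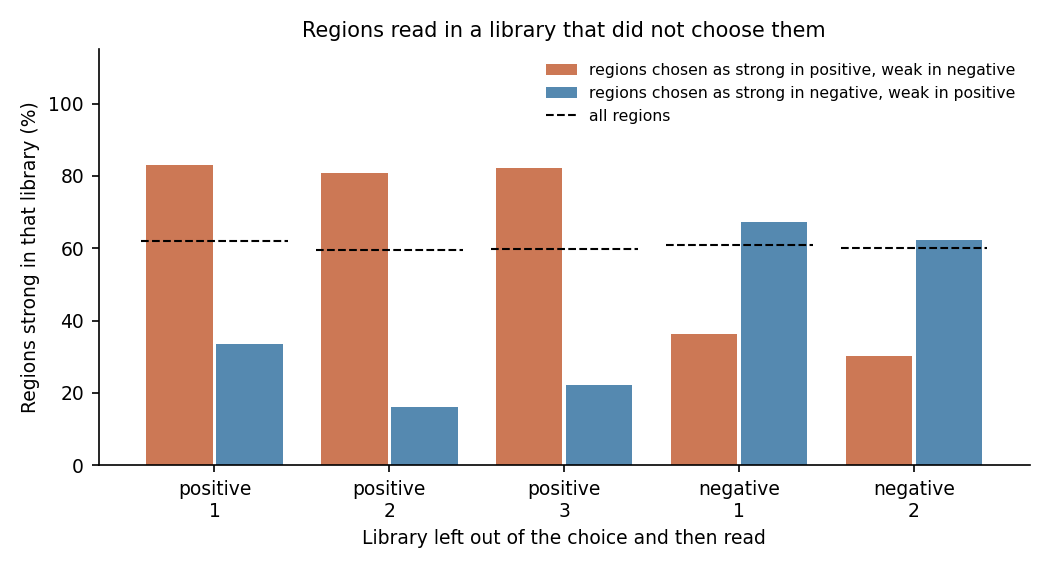
Share of regions with a strong interval in a library that was left out when the regions were chosen (y axis, %), for regions chosen as strong in positive cells (orange) and strong in negative cells (blue), with the share over all regions dashed. Orange bars are higher in the 3 positive libraries (80.8% to 83.0%) and blue bars in the 2 negative libraries (62.2% and 67.3%).

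The libraries carry names of 2 kinds in the lists, one for replicate 1 of each population and one for the other 3 libraries. This was treated as a possible batch. Regions were also chosen in one kind and read in the other. Chosen in the second kind, regions strong in positive cells were strong in 85.2% of cases in positive replicate 1 and in 34.1% in negative replicate 1, and regions strong in negative cells in 29.2% and 71.9%. The shares over all regions were 66.1% in positive replicate 1 and 63.3% in negative replicate 1. Chosen in the first kind, which has 1 library per population, regions strong in positive cells were strong in 65.3% and 66.5% of cases in positive replicates 2 and 3 and in 28.8% in negative replicate 2. Regions strong in negative cells were strong in 22.7% and 27.3% of cases in the same positive libraries and in 67.8% in negative replicate 2. Over all regions the 3 shares were 65.2%, 66.3% and 67.3%. Regions chosen from 1 library per population were thus strong in other libraries of that population about as often as regions at large, and in the other population less often.

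Being strong in one list and weak in another was not rare between replicates. Over the 12 ordered pairs made of a positive and a negative library, 9.29% to 16.0% of the regions strong in the first list were weak in the second (mean 12.0%). Over the 8 ordered pairs of libraries of one population the range was 7.97% to 14.1% (mean 9.63%). The ranges overlapped, but the lists differ in length, and with the weak list held the same every share between populations was above every share within a population, in 5 of 5 lists. For regions weak in positive replicate 1, the shares were 13.1% and 13.6% between populations and 10.1% and 10.3% within. For regions weak in negative replicate 2, the longest list, they were 15.4% to 16.0% between populations and 14.1% within.

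The position of the summit, the point of highest signal in an interval, was not used to choose the regions. The rule does require the intervals to overlap a region, which limits how far apart their summits can lie. At regions strong in positive cells, the strongest summits of 2 positive libraries lay within 100 bp of each other in 88.4% to 90.1% of regions (3 pairs of libraries, median distance 23 to 26 bp). Between a positive and a negative library this share was 71.6% to 76.7% of the regions listed in both (6 pairs, median distance 36 to 51 bp). At regions strong in negative cells, the share was 67.4% to 71.8% for the 6 pairs of a positive and a negative library and 87.0% for the pair of negative libraries. Between lists in which the region was weak the share was lower again, at 59.2% to 64.2% for the 3 positive pairs and 68.9% for the negative pair. Weak intervals thus mostly had their summit near the strong one, but less often than strong intervals had it near each other. The share that overlap alone would give was not computed.

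A lower agreement of summits was also found between replicates of one population when one interval was strong and the other weak. Over all regions of that kind, 71.9% to 76.9% had summits within 100 bp for the 8 ordered pairs within a population, and 67.1% to 76.3% for the 12 pairs between populations. The ranges overlapped. With the weak list held the same, every share between populations was below every share within a population in 3 of 5 lists, positive replicates 1 and 3 and negative replicate 1.

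**Figure D5:**
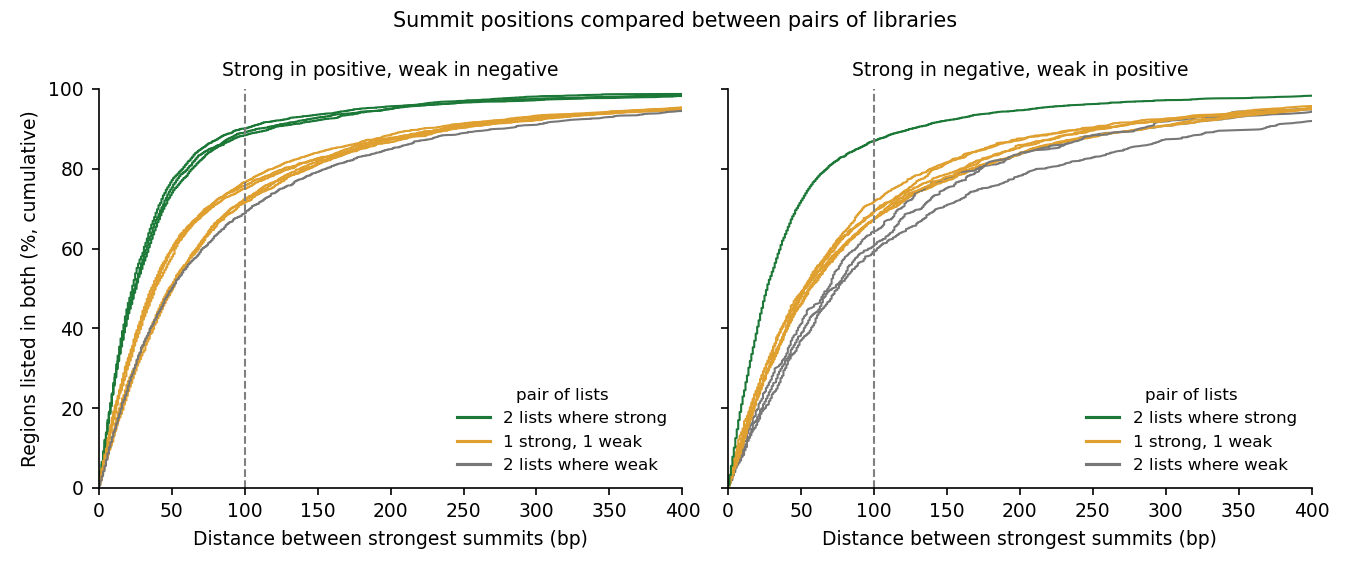
Cumulative share of graded regions (y axis, %) by the distance between the strongest summits of 2 libraries (x axis, bp), 1 line per pair of libraries, among regions listed in both. The lines for 2 libraries where the region was strong (green) lie above those for a strong and a weak library (orange) in both panels, at 87.0% or more against 76.7% or less at 100 bp (dashed).

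Graded regions were about as wide as regions at large, narrower than the regions strong in all 5 libraries and a little wider than those missing from the other population. The median width was 514 bp for regions strong in positive cells and 559 bp for those strong in negative cells, against 522 bp for all regions and 882 bp for the 25495 regions strong in all libraries. It was 422 bp for the 2479 regions (3.37% of all) strong in every positive list and not listed in negative cells, and 445 bp for the 2301 (3.13%) strong in both negative lists and not listed in positive cells. The intervals themselves had median widths of 457, 345 and 338.5 bp in the positive libraries where strong and 234 and 214 bp in the negative libraries where weak. In the other direction they were 233, 163 and 187 bp in the positive libraries where weak and 465 and 467 bp in the negative libraries where strong. An interval with several summits was found in 38.8%, 31.6% and 24.4% of regions strong in positive cells in positive replicates 1, 2 and 3, and in 34.5% and 41.5% of regions strong in negative cells in negative replicates 1 and 2. For the regions strong in all libraries these shares were 44.4% to 52.2%. Width and number of summits move with the height of an interval, so they are not independent of the rule.

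Along the chromosomes, regions strong in positive cells lay slightly nearer to regions that both populations shared than regions at large did, and regions strong in negative cells slightly farther, given here as a description. The median distance to the nearest region strong in all 5 libraries was 10125 bp for regions strong in positive cells and 13438 bp for regions strong in negative cells, against 12181 bp for all regions. Such a region was within 10 kb of 49.6% of the regions strong in positive cells and of 39.9% of those strong in negative cells, against 43.1% of all regions. Another graded region of the same direction was within 50 kb of 35.4% of the regions strong in positive cells, whereas 31.0% of all regions had one of them that near. For regions strong in negative cells the shares were 33.3% and 30.6%. For neighbours of the opposite direction, 32.6% of the regions strong in positive cells were within 50 kb of one strong in negative cells, against 30.6% of all regions. In reverse, 30.7% of the regions strong in negative cells were within 50 kb of one strong in positive cells, against 31.0% of all regions.

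Most graded regions had no neighbour of their own direction within 50 kb. Linking regions of one direction over gaps of up to 50 kb left 1979 (64.6%) of the regions strong in positive cells and 2132 (66.7%) of those strong in negative cells alone. Groups of 3 or more held 375 (12.2%) and 285 (8.92%) of them. The following groups were chosen after their values were seen. One on chromosome 14 from 1678790 to 1762512 held 7 regions strong in positive cells among its 15 regions in 83723 bp, with 1 more that was not listed in negative cells and none strong in all libraries. Groups of 7 also lay on chromosome 23 from 3893705 to 4012879 and on chromosome 15 from 4554138 to 4674675, among 22 and 21 regions. They held 2 and 0 regions of the opposite direction, and 4 and 6 strong in all libraries. In the other direction, groups of 7 regions strong in negative cells lay on chromosome 24 from 2132695 to 2301032 and on chromosome 8 from 17644874 to 17835585, among 21 and 26 regions. In these last groups 3 and 2 regions went in the opposite direction, and 3 and 3 were strong in all libraries.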

How the data were processed

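ATAC-seq peak lists of 5 libraries were used, grouped by their titles. Per the submitters' processing notes, reads were aligned with Bowtie2 to galGal5 and peaks were called with MACS2, 1 list per library. Versions, duplicate removal and any Tn5 shift are not given in the sources used here. The deposited columns hold a fold enrichment (a ratio), −log10 p-values and q-values (smallest −log10 q 1.30) and a score made from the q value, which was not used. None was normalized by the authors between libraries, per the labels and values.

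Rows were merged to unique intervals ranked by highest fold enrichment, ties in order of position. The 50000 strongest of each list were merged at 1 bp of overlap (Python 3.11.15, pandas 2.3.3). At each region the best-ranked interval of a library gave its values. Named regions are the 6 with the lowest mean rank, the 4 with the highest rank ratio, and those next to the threshold. The code of the rule was checked on simulated lists with well separated strong and weak values, which does not show how the rule behaves near rank 50000. Members and definitions were chosen with earlier results of these data known. Alternatives are given at the end.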

Additional observations from a re-analysis of the deposited data

How the results depend on the processing

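Counts are given for regions strong in positive cells, then strong in negative cells. Requiring a weak interval in every list of the other population left 1471 and 391. The first naming series alone gave 5157 and 6356 and the second 4865 and 4331, with fewer libraries to satisfy. Leaving out 1 library gave 2759 to 4096 and 3065 to 5139, the last without negative replicate 2 (4789 without negative replicate 1). The replicate numbers are not known to pair the libraries (correlation of rank differences 0.11 over 38154 regions, 2 pairs). With a replicate block, the rule was required within each same-numbered pair, and positive replicate 3, which has no partner, was left out. This gave 1757 and 1154 regions, and 1465 and 789 of the original members were kept. Ranking by p value, 40000 or 60000 strong intervals, 50% overlap, a q filter on the weak interval, equal list lengths, all sequences, reversed ties and summit windows kept both counts within 1.5 times. The members themselves changed more: of the 3064 and 3195 regions, ranking by p value kept 2470 and 2599, summit windows 2082 and 2059, 40000 strong intervals 1968 and 1868, and 60000 strong intervals 1833 and 1459. With 60000 strong intervals 5 of the 20 named entries stayed. With equal list lengths 16 stayed and with the q filter 18. Requiring a weak interval in every list of the other population kept 11 of them, and the replicate block 12.

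Summit agreement of strong with weak lists minus that between strong lists was -15.3 and -18.2 percentage points. It was -20.6 and -24.1 within 50 bp, -7.7 and -9.0 within 200 bp, and -15.1 to -12.4 and -18.4 to -17.3 without 1 library, with no value at regions strong in negative cells when a negative library was left out. The difference between own and other regions in a left-out library was 39.4 to 53.7 points in 3 alternatives chosen after the data were seen. The excess of near neighbours over all regions, 4.41 and 2.72 points within 50 kb, was 2.18 and 0.866 within 10 kb and 4.06 and 4.23 within 100 kb. What caused these changes was not tested. Depth is unknown, which limits what a weak or missing interval means.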

Other observations

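As shares of all regions, the 2 directions were distributed differently over chromosomes of different size, given here as a description. On chromosomes 11 and up, which are mostly microchromosomes, 4.59% of 15741 regions were strong in positive cells and weak in negative cells, and 3.73% were strong in negative cells and weak in positive cells. On chromosomes 1 to 5 the shares were 4.01% and 4.46% of 45436 regions, and on chromosomes 6 to 10 they were 4.21% and 4.74% of 12316. Among regions strong in every list of their own population, the graded share was 9.05% for positive cells and 7.16% for negative cells on chromosomes 11 and up. It was 9.07% and 8.63% on chromosomes 1 to 5, and 8.92% and 8.89% on chromosomes 6 to 10. By this share positive cells hardly differed between size classes, and only the share for negative cells was lower on chromosomes 11 and up. Of single chromosomes, chromosome 23 had 40 of 653 regions strong in positive cells (6.13%) and 19 strong in negative cells (2.91%). Chromosome 15 had 56 and 26 of 1184 (4.73% and 2.20%), and chromosome 11 had 65 and 91 of 1688 (3.85% and 5.39%). These chromosomes were chosen after their values were seen, and base composition and gene density were not examined here.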
